A study of Caenorhabditis elegans with 2 samples.

Results

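The regions described here were the autosomal MAB-5 peaks whose highest point, the summit, lay inside an intron. They were taken from the list of peaks that passed the irreproducible discovery rate (IDR) procedure on the ce11 genome build. A peak was counted when its summit lay within the span of a protein-coding gene, in no exon of any protein-coding transcript and more than 500 bp from the start of every protein-coding gene. This left 374 of the 1742 peaks on the 5 autosomes, or 21.5% (95% Wilson interval 19.6 to 23.5%), and 374 of the 2197 peaks of the whole list. The other 1368 autosomal peaks comprised 776 within 500 bp of a gene start, 545 between genes and 47 in exons. The peaks came from chromatin immunoprecipitation and sequencing (ChIP-seq) of 2 biological replicates of whole L2 larvae, mixed in sex, of strain OP27. This strain carried unc-119(ed3) on linkage group III and wgIs27, an integrated transgene for eGFP-tagged MAB-5. Both replicates belonged to the same group, no control sample was analysed here, and each value is from whole animals, so the cells in which a site was bound cannot be told apart.

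MAB-5 is a Hox protein of the Antennapedia class that patterns the posterior body of the nematode. It is known for directing the posterior migration of the left Q neuroblast lineage downstream of a Wnt signal, and for roles in the male tail, the epidermis and the M mesoblast. Hox proteins often bind DNA together with PBC cofactors, such as CEH-20 and CEH-40 in the worm. A Hox protein and its cofactor recognise a composite site that is written TGATNNAT here. Introns of nematode genes are mostly short, and long ones can hold enhancers and start sites of shorter transcripts.

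The sequences below are the summit and the 100 bases on each side of it in the WBcel235 (ce11) assembly, read on the strand of the host gene. The first set belongs to strong intronic peaks that held the composite site, and the capitals mark each match to TGATNNAT or its reverse complement.
mab-5, chrIII:7780584-7780784, minus strand: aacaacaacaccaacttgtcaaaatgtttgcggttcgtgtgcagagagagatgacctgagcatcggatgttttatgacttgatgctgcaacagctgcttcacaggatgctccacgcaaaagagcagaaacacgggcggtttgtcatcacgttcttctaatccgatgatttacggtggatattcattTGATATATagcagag
egl-27, chrII:6838325-6838525, plus strand: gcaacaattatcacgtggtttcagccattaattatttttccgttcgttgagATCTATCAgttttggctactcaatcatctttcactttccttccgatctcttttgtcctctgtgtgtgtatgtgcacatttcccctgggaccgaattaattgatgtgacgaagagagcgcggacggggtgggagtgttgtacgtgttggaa
pqn-41, chrIII:1923578-1923778, plus strand: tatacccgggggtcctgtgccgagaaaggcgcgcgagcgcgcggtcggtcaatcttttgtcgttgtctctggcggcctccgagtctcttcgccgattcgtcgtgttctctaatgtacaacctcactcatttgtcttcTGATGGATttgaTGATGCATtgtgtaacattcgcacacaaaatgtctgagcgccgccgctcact
cam-1, chrII:9299798-9299998, minus strand: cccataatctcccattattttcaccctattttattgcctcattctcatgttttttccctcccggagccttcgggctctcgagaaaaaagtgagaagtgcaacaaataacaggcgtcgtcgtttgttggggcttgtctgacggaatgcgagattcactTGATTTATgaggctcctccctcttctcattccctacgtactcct
The second set belongs to the 3 strongest intronic peaks, which held no such match. Capitals there mark GAGAGAG or its reverse complement, which the Y111B2A.12 window did not hold.
Y111B2A.12, chrIII:12612545-12612745, plus strand: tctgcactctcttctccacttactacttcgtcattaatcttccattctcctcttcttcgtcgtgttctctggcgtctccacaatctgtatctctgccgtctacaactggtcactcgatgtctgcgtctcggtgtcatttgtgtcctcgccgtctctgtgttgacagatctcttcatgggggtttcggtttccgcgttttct
Y43F8B.2, chrV:19522887-19523087, minus strand: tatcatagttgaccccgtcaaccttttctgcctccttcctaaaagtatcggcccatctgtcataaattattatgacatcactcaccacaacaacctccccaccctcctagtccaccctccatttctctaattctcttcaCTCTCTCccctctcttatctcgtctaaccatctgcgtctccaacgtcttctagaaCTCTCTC
pqn-41, chrIII:1925269-1925469, plus strand: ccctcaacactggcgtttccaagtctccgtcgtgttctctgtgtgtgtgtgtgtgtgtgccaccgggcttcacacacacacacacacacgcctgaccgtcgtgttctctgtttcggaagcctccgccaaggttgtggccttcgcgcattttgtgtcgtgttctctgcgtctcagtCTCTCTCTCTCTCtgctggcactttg
Both pqn-41 windows came from a single intron.

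The signal score is the authors' value for a peak in the pooled replicates, on a scale that no source used here gives. It ranged from 29.6 to 208 among the intronic peaks, with a median of 42.0 (95% order-statistic interval 39.3 to 43.7). The other autosomal peaks had a median of 45.1 (43.5 to 46.5). Among these, peaks near a gene start had a median of 47.1 (45.6 to 49.1), intergenic peaks 42.7 (41.2 to 44.6) and exonic peaks 40.9 (35.3 to 47.9). The intronic interval thus overlapped the intergenic one and lay below that of peaks near gene starts. In the replicates' own lists, each on its own scale, the intronic peaks had median signal scores of 17.6 in replicate 1 and 25.1 in replicate 2, against 19.0 and 27.3 for the other autosomal peaks. The intronic share was smaller among strong peaks, with 84 of the strongest 500 autosomal peaks (16.8%, 13.8 to 20.3%) and 16 of the strongest 100 (16.0%, 10.1 to 24.4%).

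**Figure D1:**
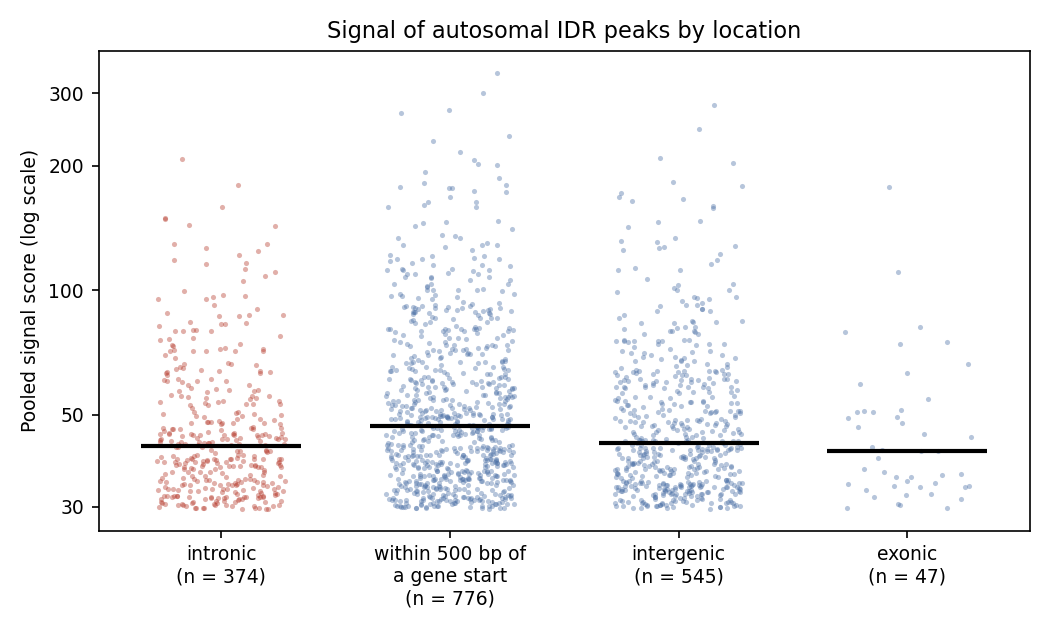
Pooled signal score (log scale) of every autosomal IDR peak by location, intronic peaks first, with a point for each peak and a bar at the median. The intronic peaks reached 208 and had a median of 42.0, against 47.1 for peaks near a gene start and 42.7 for intergenic peaks.

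Each replicate also had its own relaxed list of 30000 peaks, ranked here by signal, in which 370 of the 374 intronic peaks were found in both. Both ranks lay within the first 2197, the length of the IDR list, for 220 intronic peaks (58.8%, 53.8 to 63.7%), against 879 of the 1368 other autosomal peaks (64.3%, 61.7 to 66.8%). The background over all autosomal peaks was 63.1%, and the intervals of the intronic and other peaks overlapped. In replicate 1 alone 279 intronic peaks (74.6%) ranked so high, and in replicate 2 alone 298 (79.7%). The IDR procedure used both replicates to choose the list, so some agreement of ranks is built into it. Across the 370 intronic peaks the 2 ranks had a Spearman correlation of 0.41, and across 1355 other autosomal peaks 0.46. Neighbouring summits can fall in the same replicate peak: 9 intronic peaks shared a match with another IDR peak, and without them the share was 57.8% of 365. The Spearman correlation was then 0.37 across the intronic peaks found in both lists, while the 0.46 of the other peaks includes shared matches.

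**Figure D2:**
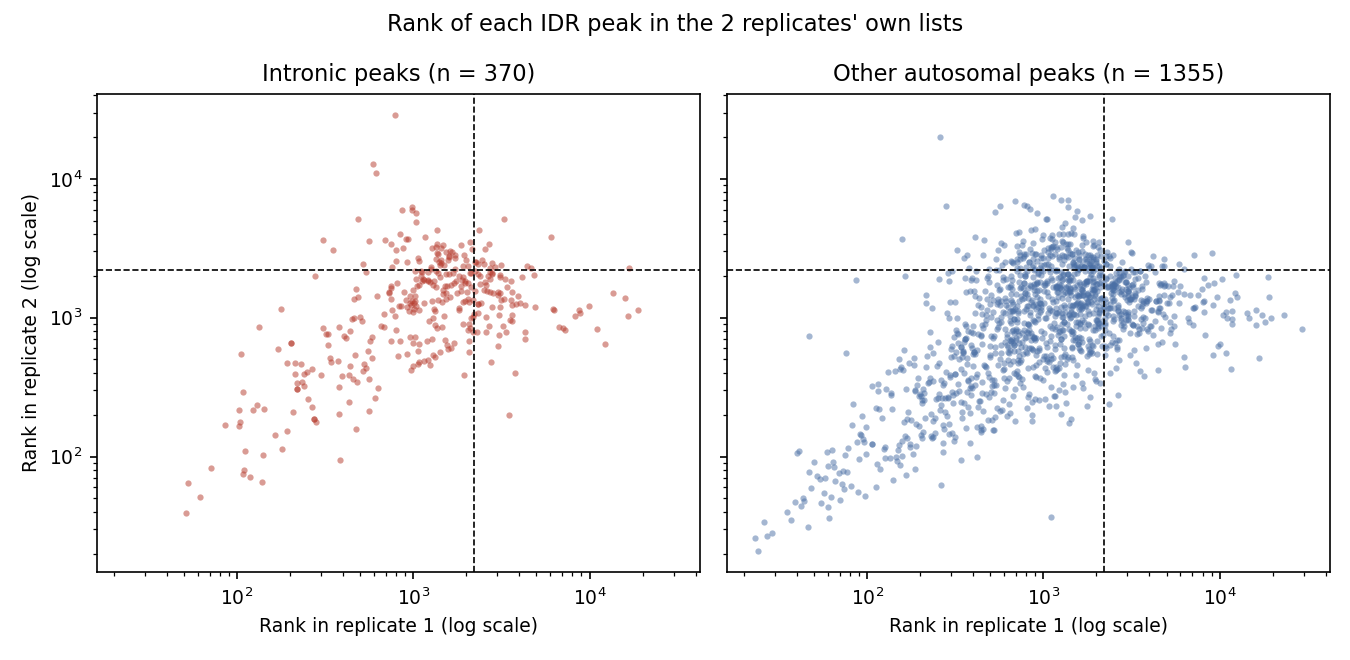
Rank of each peak in replicate 1 (horizontal, log scale) against its rank in replicate 2 (vertical, log scale), intronic peaks on the left and other autosomal peaks on the right. Each point is a peak found in both lists, and dashed lines mark rank 2197. Strong peaks lie near the diagonal in both panels, and 220 intronic peaks fall in the lower left quadrant.

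The widest gaps between the ranks were at 3 peaks with low pooled scores. That in twk-13, a gene of the TWK potassium channel family, ranked 791 in replicate 1 and 28674 in replicate 2, with a pooled score of 31.6. Those in lron-13 and zhp-3 went the other way, at ranks 18918 and 16572 in replicate 1 against 1136 and 1032 in replicate 2, with pooled scores of 30.2 and 32.0. Replicate 1 had no match for the peak in jun-1, 1 of the 2 in klp-12 and 1 of the 3 in dsh-1, and replicate 2 had none for the peak in unc-83. The pooled scores of these were 44.2 in jun-1, which is above the intronic median, 41.0 in klp-12, 29.6 in dsh-1 and 32.7 in unc-83.

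Of the 93 intronic peaks with the highest scores, 55.7 and above, 92 ranked within the first 2197 of both replicates, compared with 10 of the 94 weakest. The pooled score comes from the reads of both replicates, so much of this contrast is built in. The strongest 93 also lay in longer introns, with a median of 4254 bp against 2766 bp for the weakest 94. The share with the composite site was 25.8% in the strongest 93 and 28.7% in the weakest 94.

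Host introns were long. The median host intron measured 3369 bp (2818 to 3868; n = 372), with quartiles at 1334 and 6777.5 bp, whereas the median autosomal intron of protein-coding transcripts measured 70 bp. Longer introns also offer more sequence, so the peaks were set against all eligible bases, those that met the same location rule, which made up 24.3 Mb or 29.4% of the autosomes. The median eligible base lay in an intron of 1031 bp. Introns of at least 2000 bp held 235 intronic peaks (63.2%) but 30.4% of eligible bases. Per Mb of eligible sequence there were 5.67 peaks in introns under 500 bp, 5.73 from 500 to under 1000 bp, 13.9 from there to under 2000 bp, 25.3 from there to under 5000 bp, 39.2 from there to under 10000 bp and 43.3 in longer introns. The counts behind these densities were 35, 32, 70, 104, 87 and 44 peaks.

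The order held when repeat-masked bases were left out of both the peaks and the sequence. The density was then 10.0 per Mb in introns under 500 bp and 69.8 per Mb in those of at least 10000 bp. Summits lay on a masked base in 48 intronic peaks (12.8%, 9.82 to 16.6%), while 54.2% of eligible bases were masked. The part of read placement in this difference was not tested.

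The longest host intron was intron 4 of kin-1, of 21230 bp, in the gene of the catalytic subunit of protein kinase A. It held 3 peaks with scores of 55.2, 37.6 and 37.5, and intron 5 held another of 31.7. The shortest, at 44 bp, was in T23G4.127, where the peak of 613 bp was wider than the intron, as was the case for 24 intronic peaks in all. That peak had a score of 66.9, and the strongest replicate peaks that overlapped it ranked 62 and 51 in replicates 1 and 2. The Y43F8B.2 peak, at ranks 53 and 65, had a pooled score of 180. Whether the ranks given for T23G4.127 belong to a stronger neighbouring peak was not tested.

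A small RNA gene of any of the classes snoRNA, tRNA, snRNA or miRNA lay within 200 bp of the summit for 34 intronic peaks (9.09%, 6.58 to 12.4%), against 0.613% of eligible bases. These peaks were concentrated in short introns. In introns under 500 bp 19 of 35 peaks (54.3%, 38.2 to 69.5%) had such a neighbour, against 0.839% of eligible bases in introns of that length. From 500 to under 1000 bp it was 9 of 32 (28.1%, 15.6 to 45.4%), and in introns of at least 2000 bp it was 1 of 235. By class, 18 of the 34 lay beside a snoRNA gene, 11 beside a tRNA gene, 4 beside a snRNA gene and 1 beside a miRNA gene. The strongest was in the 360 bp intron 31 of dhc-4, a dynein heavy chain gene, beside a snRNA gene: it had a pooled score of 118 and ranked 165 in replicate 1 and 142 in replicate 2. The next, in a 341 bp intron of pxn-1, a peroxidasin gene, lay beside a snoRNA gene with a score of 86.9 and ranks of 219 and 337. The 34 peaks had a median score of 39.8 (35.0 to 42.8), and the other 340 had 42.6 (39.4 to 44.2). The composite site was found at 4 of the 34 (11.8%) and at 101 of the other 340 (29.7%). In the replicates' own strongest 2197 peaks, the intronic ones lay beside a small RNA gene in 7.95% of cases in replicate 1 and 7.03% in replicate 2.

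**Figure D3:**
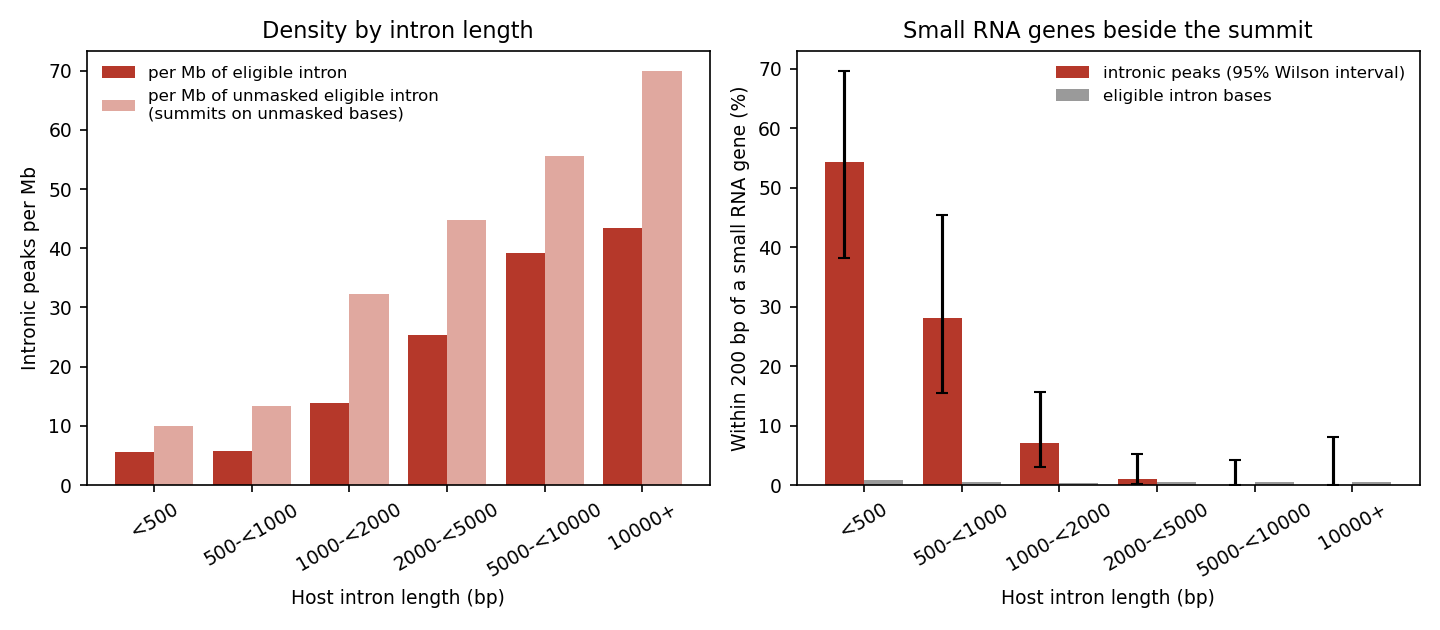
Left, intronic peaks per Mb of eligible intron sequence by host intron length, over all bases and over unmasked bases. Right, percent within 200 bp of a small RNA gene, for intronic peaks (bars are 95% Wilson intervals) and for eligible bases. Density climbs from 5.67 to 43.3 per Mb with intron length, while the small RNA share falls from 54.3% to 0.

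The first intron held 117 intronic peaks (31.5%, 26.9 to 36.3%), although it made up 18.0% of eligible bases. Intron 2 held 76 (20.4%, against 15.9% of bases), intron 3 held 38 (10.2%, against 13.7%), introns 4 and 5 together 61 (16.4%, against 21.7%) and later introns 80 (21.5%, against 30.6%). First introns were also long introns. Among introns of at least 2000 bp, first introns held 86 of 235 peaks (36.6%, 30.7 to 42.9%) and 33.6% of the bases, and this interval includes the share of bases. The last intron of the host transcript held 12. Cut into 5 parts of equal length from the donor to the acceptor end, the introns held 52, 72, 87, 96 and 65 peaks, while the same parts held 17.8%, 19.6%, 20.4%, 21.0% and 21.3% of eligible bases. The host transcript was that with the longest coding sequence, and for 2 peaks, in cdc-25.2 and dhs-17, none of the host's transcripts had an intron at the summit.

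Measured from the host gene's start, the median intronic peak lay 4123 bp downstream (3491 to 4721), and the farthest 32533 bp. The rule used gene starts only, so a summit could lie near the start of a shorter transcript. This was the case within 500 bp for 63 peaks (16.8%, 13.4 to 21.0%), against 9.11% of eligible bases, and within 200 bp for 23 (6.15%, 4.13 to 9.06%), against 3.07%. Within 1000 bp the share was 35.3% (30.6 to 40.3%), close to 32.2% of bases. Strong examples were Y43F8B.2, whose summit lay 126 bp from a transcript start, and lin-39, where it lay 19 bp away.

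At the 500 bp limit itself, the nearest peaks inside the rule were in cpz-1 at 503 bp, twk-5 at 515 bp and uba-5 at 524 bp from a gene start, with scores of 43.8, 46.3 and 29.7. Those just outside it were in Y39A1A.9 at 488 bp, Y56A3A.7 at 487 bp and snf-11 at 485 bp, with scores of 44.6, 54.4 and 53.2.

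A summit lay inside an annotated non-coding gene for 50 intronic peaks (13.4%), against 2.08% of eligible bases. Most of these, 40, were genes of the general ncRNA class, which made up 0.974% of eligible bases.

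Along the chromosomes, the inner 40% held 214 intronic peaks (57.2%, 52.2 to 62.1%) and 32.7% of eligible bases. Chromosome II had the highest density, 20.2 per Mb of eligible sequence (82 peaks), and chromosome V the lowest, 12.96 (66 peaks). Chromosome I had 85, chromosome III 68 and chromosome IV 73. The windows around the summits were richer in G and C than intron sequence at large, with a median of 43.8% GC for intronic peaks, 42.8% for other autosomal peaks and 32.3% for eligible windows.

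The 374 peaks lay in 286 host genes, which is 1.96% of the 14599 autosomal protein-coding genes that had eligible bases. A single peak was found in 230 hosts, 2 peaks in 37, 3 in 11, 4 in 5, 5 in 1 and 6 in 2. The 19 hosts of 3 or more held 70 peaks. Hosts offered more intron sequence, with a median of 6906 eligible bp against 620 bp in genes without an intronic peak. Of the 1169 genes with at least 5000 eligible bp, 181 (15.5%) were hosts. An IDR peak within 500 bp of the gene's own start was found for 24 hosts (8.39%, 5.70 to 12.2%), against 5.74% of the genes without an intronic peak. The interval for hosts includes that 5.74%. Among genes with at least 5000 eligible bp the share was 5.52% in hosts and 8.91% in the others, without intervals. Neither comparison settles a direction. The same genes were largely hosts in each replicate's strongest 2197 peaks: 219 of the 286 (76.6%) in replicate 1, 233 (81.5%) in replicate 2 and 180 (62.9%) in both.

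The strongest intronic peak of all, with a score of 208, lay in intron 4 of Y111B2A.12 (chrIII:12612479-12612751). It had a score of 78.6 and rank 51 in replicate 1, and 136 and rank 39 in replicate 2. The next lay in intron 4 of Y43F8B.2 (score 180; ranks 53 and 65). The glutamine- and asparagine-rich protein gene pqn-41, which is known for a part in the death of the linker cell, held 4 peaks in its 10372 bp intron 14. Their scores were 159, 126, 116 and 81.8. Their ranks in replicate 1 were 71, 85, 383 and 249, and in replicate 2 they were 83, 170, 95 and 405. The other hosts among the 12 strongest were scc-2, a cohesin loader (score 149), T28F4.1 (149), mab-5 (144), soem-1 (143), lin-39 (130), jnk-1, which encodes the Jun N-terminal kinase (129), unc-108, a Rab GTPase of vesicle traffic (125), and pbrm-1, the polybromo subunit of a SWI/SNF remodelling complex (122). All 12 ranked within the first 176 of both replicates.

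The Hox genes mab-5 and lin-39 each held 4 intronic peaks, which placed 8 peaks in 20911 eligible bp over the 6 Hox genes. In mab-5 all 4 lay in intron 3, of 3564 bp. The strongest (chrIII:7780487-7780874) had a pooled score of 144, with 52.2 in replicate 1 and 98.3 in replicate 2, and the others had pooled scores of 90.3, 88.4 and 47.6. The summits of the 144 and 88.4 peaks lay about 200 bp apart, the closest of any 2 neighbouring intronic peaks in a host, and fell in the same peak of replicate 1. The composite site was present at 3 of the 4. The animals carried a mab-5 transgene besides the endogenous gene, and reads from the copies cannot be told apart, so signal at this locus is not on the same footing as elsewhere. In lin-39, the Hox gene of the midbody and the vulva, intron 1 held peaks of 130 (ranks 141 and 102) and 46.6, intron 2 a peak of 32.5 and intron 3 a peak of 31.4. The 32.5 peak ranked 8682 in replicate 1 and 1134 in replicate 2. Neither of the 2 autosomal Hox cofactor genes with eligible bases held an intronic peak of the IDR list. With only 2 genes, the Wilson interval of this share reached up to 65.8%. In the replicates' own strongest 2197 peaks, the cofactor list had 1 host in replicate 1 and 0 in replicate 2. The Hox genes had 3 hosts in replicate 1 and 2 in replicate 2.

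Outside the Hox genes the hosts with most peaks were egl-27 and ppfr-1, with 6 each, and hlh-30, with 5. The gene egl-27 encodes an MTA-like protein known from embryonic patterning and cell migration, and its 6 peaks were spread over 4 introns. They had scores from 31.6 to 117, and the strongest, in intron 5, ranked 181 and 113 in replicates 1 and 2. The phosphatase regulatory subunit gene ppfr-1 held 6 with scores of 95.2, 87.1, 44.1, 38.2, 36.8 and 30.7, but 4 of these were 2 pairs that each shared a replicate peak. The gene of the lysosome and autophagy regulator HLH-30 held 4 in intron 2 and 1 in intron 1, from 30.7 to 74.2, and none had the composite site. The other hosts of 4, besides the Hox genes and pqn-41, were T28B11.1, with all 4 in its first intron of 17091 bp (33.8 to 76.7), and kin-1. The 11 hosts of 3 were cam-1, dsh-1, madd-2, let-526, zfp-1, mnk-1, sea-2, lsy-22, tns-1, twk-43 and F57A8.1. Neighbouring intronic peaks of a host lay a median of 2313.5 bp apart over 88 pairs, and 12 pairs lay within 1000 bp.

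**Figure D4:**
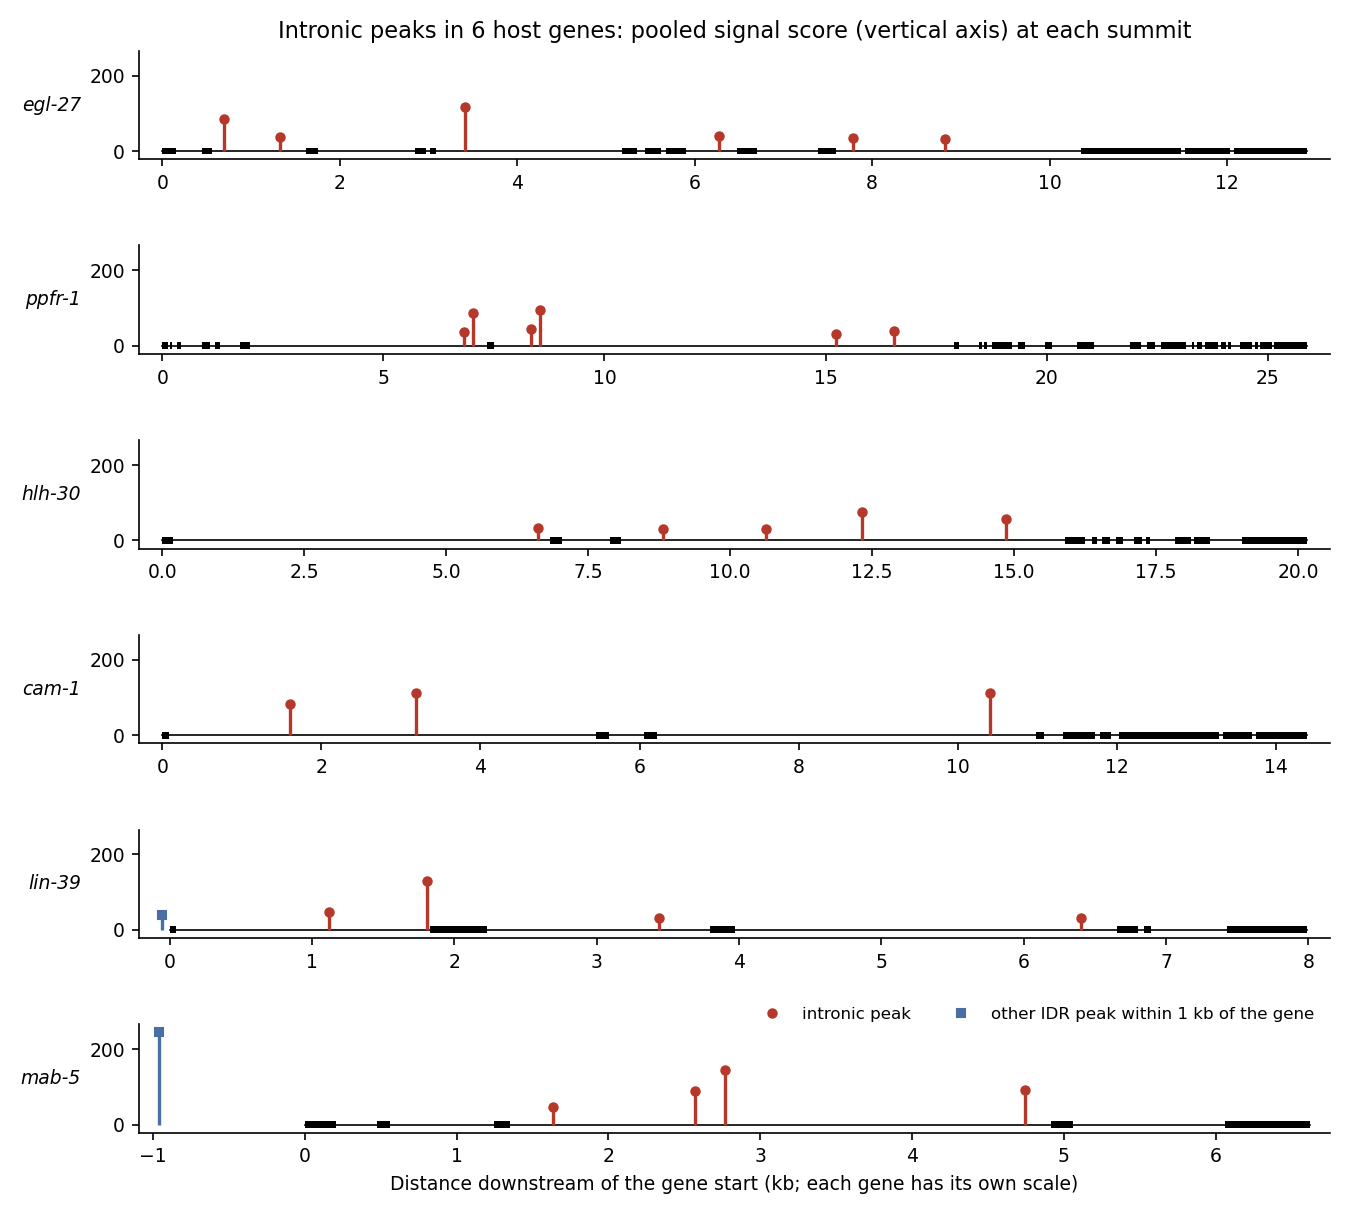
Gene maps of 6 hosts, with exons of all transcripts as black boxes, distance downstream of the gene start in kb on the horizontal axis and pooled signal score on the vertical axis. Red circles are intronic peaks and blue squares are other IDR peaks within 1 kb of the gene. The 4 mab-5 peaks share an intron, while the 6 egl-27 peaks lie in 4 introns.

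Of 31 genes listed for neuroblast migration and axon guidance that had eligible bases, 13 were hosts (41.9%, 26.4 to 59.2%), with 19 peaks or 76.8 per Mb of eligible sequence, against 15.4 per Mb over all genes. These genes had long introns, with a median of 5475 eligible bp. Over all genes, introns of 2000 to under 5000 bp held 25.3 peaks per Mb, those to under 10000 bp 39.2 and longer ones 43.3. The densities of this and the following lists were not matched for intron length. The share of hosts was 1.96% over all genes with eligible bases and 15.5% over those with at least 5000 eligible bp, and the shares of this and the following lists stand against both. The lists were chosen with earlier results of these data known, so these shares are descriptions and not tests. The strongest was in madd-2, a TRIM-family regulator of muscle arm and axon extension, with scores of 95.1, 43.6 and 37.6. It was followed by madd-4, a secreted guidance protein gene (2 peaks, up to 63.9), the netrin receptor gene unc-5 (2 peaks, 63.6 and 57.7), mig-10, a lamellipodin homolog (60.5), vab-1, an Eph receptor (2 peaks, up to 55.8), rig-6, a contactin (55.1), and the netrin receptor gene unc-40 (54.0). Weaker peaks from 29.7 to 45.0 lay in unc-44, smp-1, ptp-3, sax-7, unc-76 and cdh-4. In the replicates' own strongest 2197 peaks the list had 12 hosts in replicate 1 and 13 in replicate 2.

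Of 27 Wnt pathway genes with eligible bases, 5 were hosts (18.5%, 8.18 to 36.7%), with 9 peaks or 91.3 per Mb. The median gene of this list had 1651 eligible bp, and the interval includes the 15.5% of genes with at least 5000 eligible bp. All 5 act at or below the receptor. The eligible sequence of ligand genes, receptor genes and genes below them was not compared, so this describes the 5 hosts only. The receptor tyrosine kinase gene cam-1, a Ror homolog that binds Wnts, held peaks of 113, 111 and 83.1. Those of 113 and 83.1 lay in intron 1 and that of 111 in intron 3. The composite site was present at 2 of the 3, that of 111 among them. The strongest ranked 103 in replicate 1 and 216 in replicate 2. The Frizzled gene mig-1 held a peak of 68.5 (ranks 581 and 513), and the Frizzled gene lin-17 held 1 of 39.7 (ranks 1478 and 1480). The Dishevelled gene dsh-1 held 3, from 29.6 to 43.0, and lit-1, a Nemo-like kinase gene, held 1 of 38.4 that ranked 7212 in replicate 1 and 813 in replicate 2.

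Among 33 synapse and transmitter genes 7 were hosts (21.2%, 10.7 to 37.8%; 46.1 peaks per Mb), led by the muscarinic receptor gene gar-2 (92.0; ranks 379 and 203) and unc-49, a GABA receptor gene (58.9). The others were rab-3, ric-4, unc-13, snt-1 and syd-1, from 30.1 to 43.6. The interval of this share includes the 15.5% of genes with at least 5000 eligible bp, as does that of each list below other than ion channel genes. Of 8 heterochronic genes, lin-28, an RNA-binding regulator of larval timing, held a strong peak (97.2; ranks 209 and 208), and lin-42 held 2 weak ones. TGF-beta and Ras signalling genes gave 4 hosts of 25 (16.0%, 6.40 to 34.7%), with daf-5, a Ski-like gene, at 83.5 and the ERK gene mpk-1 at 80.2. Neuronal transcription factor genes gave 3 of 32, led by zag-1 with peaks of 71.3 and 50.9, both with the composite site. Matrix and adhesion genes gave 3 of 22, body wall muscle genes 2 of 28 and the listed chromatin genes 1 of 32. None of the 26 listed ion channel genes and none of the 19 seam and epidermal genes was a host, although these channel genes offered 199201 eligible bp. The 95% upper bounds for these shares were 12.9% and 16.8%. The lists do not cover their classes, and hosts outside them, looked up after their values were seen, included further chromatin and channel genes. Chromatin genes among these were pbrm-1, let-526, with 3 peaks of up to 87.3, zfp-1, with 3 of up to 82.8, and egl-27. Channel genes among them were kvs-5 (108), twk-43, with 3 peaks of up to 97.3, shw-1, with 2, kcnl-1, lgc-30 and lgc-31, and the TWK family members twk-5, twk-7, twk-13, twk-42 and twk-48. The counts for chromatin and channel genes are thus those of the lists and not of the classes. In all, 42 hosts were in a list and 244 in none.

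The composite site TGATNNAT was searched on both strands within 100 bp of each summit. It was present at 105 intronic peaks (28.1%, 23.8 to 32.8%), against 20.0% (18.0 to 22.2%) of the other autosomal peaks. The background over all autosomal peaks was 21.8%. The share in intergenic peaks was 28.3% (24.6 to 32.2%), nearly that of the intronic ones, and in peaks near gene starts 13.0% (10.8 to 15.6%). Eligible windows of the same length held it in 12.6% of cases, or 9.48% when weighted to the GC content of the intronic peaks. Of 124 matches at intronic peaks, 91 (73.4%) were centred within 50 bp of the summit, in a window that spans 100 bp on each side. The share was 24.9% for the intronic peaks among replicate 1's own strongest 2197 and 27.6% for those of replicate 2.

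The letters between the fixed ends were uneven. TGATTTAT occurred at 34 intronic peaks (9.09%, 6.58 to 12.4%), against 0.951% of eligible windows at their GC content. Intergenic peaks held it in 8.62% of cases (6.55 to 11.3%), nearly the intronic share, and peaks near gene starts in 3.35%. TGATAAAT was the next most frequent, at 20 intronic peaks (5.35%). Without weighting by GC content 2.62% of eligible windows held TGATAAAT and 1.69% held TGATTTAT. The spelling TGATAAAT contains TGATAA, the GATA site described below. TGATTGAT occurred at 17 intronic peaks (4.55%, 2.86 to 7.16%), against 0.899% of the windows at their GC content and 0.942% without weighting. Intergenic peaks held TGATTGAT in 5.87% of cases and peaks near gene starts in 1.55%. The spellings were singled out after their values were seen. The cam-1 window printed above holds TGATTTAT, and the mab-5 window holds TGATATAT.

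The motif GAGAGAG was searched without reference to a factor and was present at 101 intronic peaks (27.0%, 22.8 to 31.7%). The other autosomal peaks had it in 21.9% of cases (19.7 to 24.1%), intergenic peaks in 30.6% and eligible windows at the same GC content in 6.61%. Both motifs were present at 21 intronic peaks and neither at 189 (50.5%). The core of MEIS-type sites, TGACAG, was found at 11.2% of intronic peaks (8.42 to 14.8%), 6.94% of the other autosomal peaks (5.71 to 8.42%) and 6.15% of windows at the same GC content. The site of GATA factors, TGATAA, was found at 13.4% of intronic peaks (10.3 to 17.2%), 9.58% of the other autosomal peaks (8.13 to 11.3%) and 9.78% of those windows. Without weighting by GC content 15.7% of eligible windows held TGATAA, which lies within the interval of the intronic peaks. The excess over intron sequence was thus seen only with the weighting. In the same 3 sets the E-box CACGTG was found at 6.95%, 5.41% and 5.17%, and TTAATTA at 2.41%, 3.73% and 2.22%, with overlapping intervals between intronic and other peaks for both. Unweighted windows held CACGTG in 2.79% of cases and TTAATTA in 6.0%. For TTAATTA the interval of the intronic peaks (1.27 to 4.51%) includes the weighted share of windows and lies below the unweighted one. GCGCAGGG was found at 1 intronic peak. These matches describe letters in the windows and do not show that a factor was bound.

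**Figure D5:**
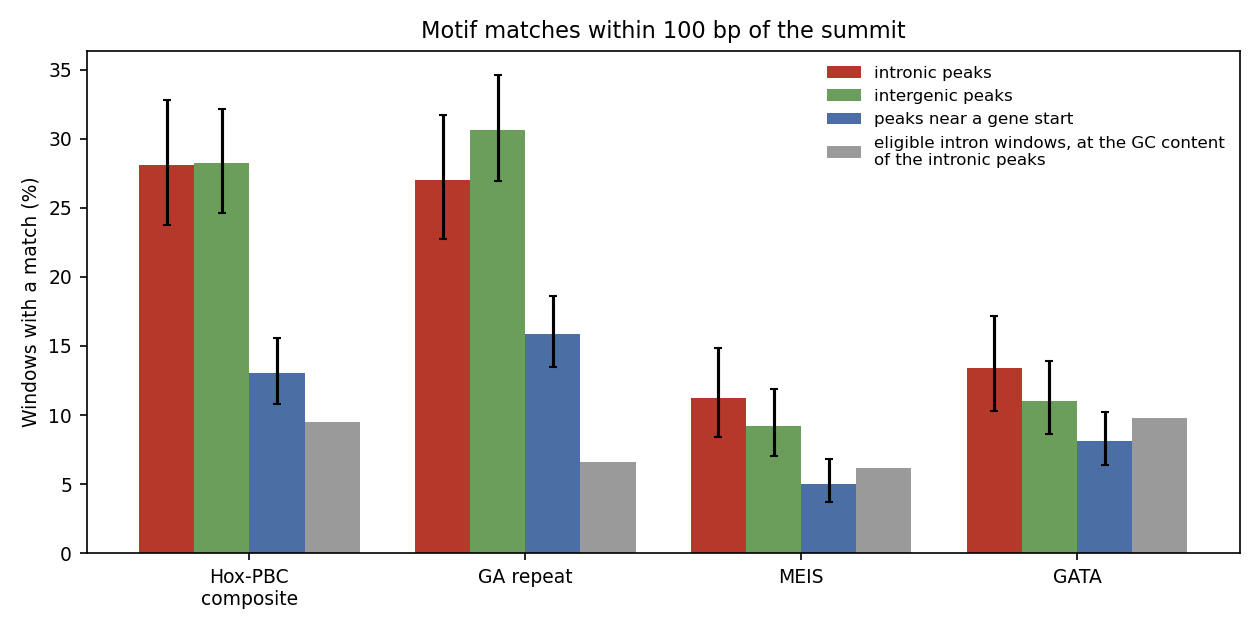
Percent of windows, of 100 bp on each side of the summit, that held the composite site, the GAGAGAG repeat, the MEIS core and the GATA site, for intronic peaks, intergenic peaks, peaks near a gene start, and eligible intron windows weighted to the GC content of the intronic peaks. Black bars are 95% Wilson intervals. Intronic and intergenic peaks stand at 28.1% and 28.3% for the composite site, above the 13.0% of peaks near a gene start.

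Among each replicate's own strongest 2197 peaks, intronic peaks made up 22.6% of the autosomal peaks in replicate 1 and 21.5% in replicate 2, with 67.4% and 64.9% of them in introns of at least 2000 bp, 33.9% and 32.1% in first introns, and 57.4% and 55.9% in the inner 40% of a chromosome. Summits lay on masked bases in 15.9% and 15.4% of them.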

How the data were processed

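ChIP-seq of eGFP-tagged MAB-5 in L2 larvae gave 1 group of 2 biological replicates. The authors deposited peak lists in narrowPeak format on ce11: 30000 relaxed peaks for each replicate, a pooled list and the IDR list. Per the labels, lists on ce10 also exist, which were not used here. The signal score is the authors' value per peak, and the sources used here do not give its scale or normalization. The −log10 q values deposited in the IDR list all stand at 3.66 and were not used to rank. The sources used here do not name the aligner, the peak caller or the IDR threshold, and read depth is unknown.

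Peaks were assigned with the Ensembl release 115 annotation of WBcel235, which is ce11. Host gene was the shortest span around the summit, and host intron that of the transcript with the longest coding sequence. Replicate peaks were matched by an overlap of at least 1 bp, the strongest where several overlapped. Python 3.11.15, numpy 2.4.6, pandas 2.3.3 and matplotlib 3.10.9 were used, and the steps were tested on a small made-up annotation. Shares carry 95% Wilson intervals and medians order-statistic intervals. Both cover counting error only, treat neighbouring peaks as independent and compare no conditions, and no p-value was computed. Small RNA genes are those of the 4 classes named, and repeat masking is that of the NCBI sequence. The named genes are the hosts of the 12 strongest peaks, hosts of 3 or more, hosts in 13 gene lists (386 names, of which 3 had no protein-coding match), and the members at the limits of distance, intron length and rank gap. The members and lists were chosen with earlier results of these data known. Alternatives changed the distance, the start and exon definitions, the host intron, the overlap, the motif window, the strength and the replicate used.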

Additional observations from a re-analysis of the deposited data

Results flagged for a closer look

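Outside the IDR list, the pooled list held autosomal peaks that both replicates ranked within their first 2197 and that lay over 500 bp from every IDR peak. There were 19 of these, and 3 lay in introns by the same rule, beside 374 of the 1742 autosomal IDR peaks. Of the 3, 2 had replicate peaks of their own, in uig-1 (pooled score 29.0, ranks 1759 and 2062 in replicates 1 and 2) and tns-1 (28.5, ranks 2084 and 2133). They were singled out because they are signal that the comparisons above did not use. Both scores lie just under 29.6, the lowest in the IDR list, and tns-1 already hosted 3 intronic peaks.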

How the results depend on the processing

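Of the 69 alternative values, 50 stayed within the interval of the main value, or within 1.5 times it for counts. The intronic share of autosomal peaks fell to 19.2% and 15.1% with distance limits of 1000 and 2000 bp, 17.9% with starts of all transcripts, 18.5% with exons of every gene type and 18.4% in the upper 50% of IDR peaks by signal. The first-intron share was 22.9% at 2000 bp, 38.9% in that upper 50% and 37.6% with the shortest host intron. Median intron length was 4425.5 bp at 2000 bp and 3919 bp in that upper 50%. That upper 50% held 159 intronic peaks in 129 hosts, with a median score of 60.4 and 93.7% ranked first in both replicates. Over all 374 intronic peaks, the share ranked first in both replicates fell from 58.8% to 49.5% when an overlap of 50% of both peaks was required. TGATNNAT was present in 19.5% of windows of 50 bp each side and in 40.6% of 200 bp each side. With a single replicate the median score was 18.0 to 25.0, on that replicate's own scale, and the share ranked first in both replicates has no value. No paired analysis was possible because both replicates belong to 1 group. No control and no second condition was analysed here, and depth is unknown, so weak sites cannot be told from absent ones.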

Other observations

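Over all 2080 words of 6 letters, counted with their reverse complements, GAGAGA was the word most in excess at the intronic peaks: 186 (49.7%) held it, against 15.3% of eligible windows at the same GC content, and peaks near gene starts held it in 33.1%. AGAGAC followed the same pattern at 36.4%, against 11.0%. The longer word GAGACGCA, chosen after the printed windows were read, occurred at 49 intronic peaks (13.1%, 10.1 to 16.9%), 15.7% of the other autosomal peaks (13.9 to 17.7%) and 3.93% of eligible windows at that GC content. At the other end, AAAATT was found at 24.1% of intronic peaks and in 50.5% of the eligible windows at their GC content.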
